A study of Mus musculus with 8 samples.

Results

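The translation initiation factors (eIFs) and elongation factors (eEFs) were examined at the mRNA level in 3T3-L1 adipocytes, a mouse cell line that differentiates from preadipocytes to fat cells in culture. The members were taken by name as the protein-coding genes whose mouse symbol begins with Eif or Eef. The eIF2 kinases (Eif2ak genes) and the eEF2 kinase Eef2k were left out, since they phosphorylate factors and are not factors themselves. This gave 63 of the 43629 genes listed, and 60 of the 63 passed the filter on low counts and were tested. Polyadenylated RNA was sequenced in 8 libraries, in 4 groups of 2 cultures: untreated, A66, palmitate, and palmitate plus A66. A66 is an inhibitor that is selective for p110α, a catalytic subunit of PI 3-kinase, and palmitate is a saturated fatty acid that was given bound to albumin. All cells had been differentiated with insulin, dexamethasone, IBMX and rosiglitazone and were treated for 24 h on day 8 of differentiation, with 2 µM A66, 0.5 mM palmitate or both according to the labels. The study's methods name a lower dose of A66 and give DMSO, its vehicle, as the treatment of the control adipocytes, which the labels call untreated. Neither source names a control with albumin alone, so a palmitate difference cannot be told apart from an effect of the carrier. No transcript reports on the activity of p110α directly, so each direction rests on the labels.

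Initiation begins when eIF2, loaded with GTP, brings the initiator tRNA to the small ribosomal subunit together with eIF1, eIF1A, eIF3 and eIF5. The eIF4F complex, made of the cap-binding protein eIF4E, the scaffold eIF4G and the helicase eIF4A, recruits this subunit to the mRNA cap, and 4E-binding proteins (4E-BPs) keep eIF4E from the scaffold until mTORC1, a kinase complex downstream of PI 3-kinase and insulin, phosphorylates them. In elongation, eEF1A delivers aminoacyl-tRNA and the eEF1B subunits recharge it with GTP, while eEF2 moves the ribosome along the mRNA. Many elongation factors and some initiation factors are encoded by TOP mRNAs, which begin with a run of pyrimidines and whose translation depends on mTORC1. Much of the regulation of this machinery is known to act on translation and on protein phosphorylation, which counts of mRNA do not measure.

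The start sites of some of the members named below are shown first, because the TOP class is defined by the first bases of the transcript. Each line covers 30 bases of the RefSeq annotation on GRCm38.p6, from 10 bases before the annotated start to the 20 bases that follow it, 5′ to 3′ on the strand of the gene, and capitals mark the longest run of C or T in the window. The first 5 genes belong to the TOP list, which was written from general knowledge of the class, and the last 5 passed the test in a comparison and are not on that list. Eif3m and Eif4g3, which also passed and are not on the list, have longest runs of 5 and 4 bases and are not shown.
Eef1a1, chr9:78481705-78481734, minus strand: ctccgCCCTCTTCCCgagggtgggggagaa
Eef1b2, chr1:63176821-63176850, plus strand: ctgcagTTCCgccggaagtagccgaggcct
Eef2, chr10:81176621-81176650, plus strand: aaggccgggcgttgacgtcagcggTCTCTT
Eif3f, chr7:108934405-108934434, plus strand: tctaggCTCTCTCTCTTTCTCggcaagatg
Eif4b, chr15:102073763-102073792, plus strand: tcccgtcggacgccgcgccaCCCCCTCgcg
Eif1, chr11:100319939-100319968, plus strand: ggcgTCacaggggcggctatataagtgaat
Eif2s2, chr2:154892887-154892916, minus strand: aaggttggCTTTactgtacgcctgcgcttt
Eif3c, chr7:126566347-126566376, minus strand: ctgCTCagagggactcggcagcttagctgg
Eif3d, chr15:77970805-77970834, minus strand: agggccaTTTacgacagcgctggtcgccgt
Eif4a2, chr16:23107458-23107487, plus strand: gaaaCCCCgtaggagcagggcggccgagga

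The longest run was 15 bases in Eif3f, 10 in Eef1a1, 7 in Eif4b and 6 in Eef2, and it was 4 bases in Eef1b2, Eif2s2 and Eif4a2. The Eef2 run reaches the last base of the window, so its full length is not known from it. In Eef1a1 and Eif3f the run crosses the annotated start, whereas in Eef2 and Eif4b it lies 14 and 10 bases downstream of it. A run of at least 6 pyrimidines on the strand of the gene was found in the window of 4 of the 6 TOP list members with an entry, 12 of the 41 other members with an entry, and 31.9% of the 17492 protein-coding genes in the table. An entry was present for 47 of the 63 members, and those without one were Eef1akmt1, Eef1akmt3, Eef1d, Eef1g, Eif1a, Eif2b3, Eif3e, Eif3h, Eif3i, Eif3j2, Eif4e1b, Eif4e3, Eif4ebp1, Eif4ebp3, Eif4g2 and Eif6. The annotated start need not be the start that adipocytes use, and a run of letters in a window is a description of the reference only.

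The libraries held between 42247091 and 57529803 counts, so that 3 counts, taken as the floor, corresponded to between 0.0519 and 0.0706 CPM (counts scaled to the total of their library, edgeR's unit), and this floor covers counting error only. All 8 adipocyte markers were present, with summed levels of 17454 and 17535 CPM in the untreated libraries, 17218 and 17885 after A66, 15477 and 16403 after palmitate, and 15010 and 16090 after both. Of the 5 preadipocyte and fibroblast markers Dlk1, a marker of preadipocytes, was at 0 in every library, and the sums ranged from 704 to 898 CPM. Pdgfra and Col1a1 of this list were at 87.9 to 108 and 576 to 773 CPM. Rps6kb2, a kinase gene of the mTORC1 pathway, was also at 0 in every library. Whether such a 0 comes from the counting was not tested. The macrophage marker Adgre1 and the muscle marker Myod1 were at 0 in every library, Ptprc and Myog did not exceed 0.0213 CPM, and the sums of the macrophage and muscle lists did not exceed 5.94 and 2.13 CPM. The 3 proliferation markers summed to between 18.8 and 28.4 CPM. Fewer cells of a type and less RNA per cell cannot be told apart in such libraries. The part that these marker differences have in the results on the factors was not tested.

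Together the 63 mRNAs took between 1.94% and 2.05% of all counts, and Eef1a1 and Eef2 alone took between 42.8% and 44.9% of the members' counts. Divided by the median length of the gene's coding transcripts, levels in untreated cells ran from 3384 CPM per kilobase for Eef1a1 and 737 for Eef2 down to 2.90 for Eif5a2 among the 57 members whose mean was 10 CPM or more. After these elongation factors the highest untreated levels per kilobase were those of the helicase Eif4a1, at 381, and of Eef1b2, at 333, followed by Eif4a2, Eef1g and Eif4b, at 298, 280 and 248. The core subunits of eIF3 lay between 49.2 for Eif3f and 189 for Eif3e, while Eif3j1 and Eif3j2 were at 7.82 and 7.77. The 5 subunits of eIF2B, the exchange factor that recharges eIF2, were at 12.1 to 33.6 CPM per kilobase, and of the eIF2 subunits Eif2s1 was at 24.6, Eif2s2 at 74.2 and Eif2s3x at 112. Of the paralog pairs 1 copy was often far higher than the other, with Eif5a at 241 against 2.90 for Eif5a2, Eif4e at 93.8 against 38.7 for Eif4e2 and 3.10 for Eif4e3, and Eif4ebp1 at 135 against 15.3 for Eif4ebp2 and 0.755 for Eif4ebp3.

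**Figure D1:**
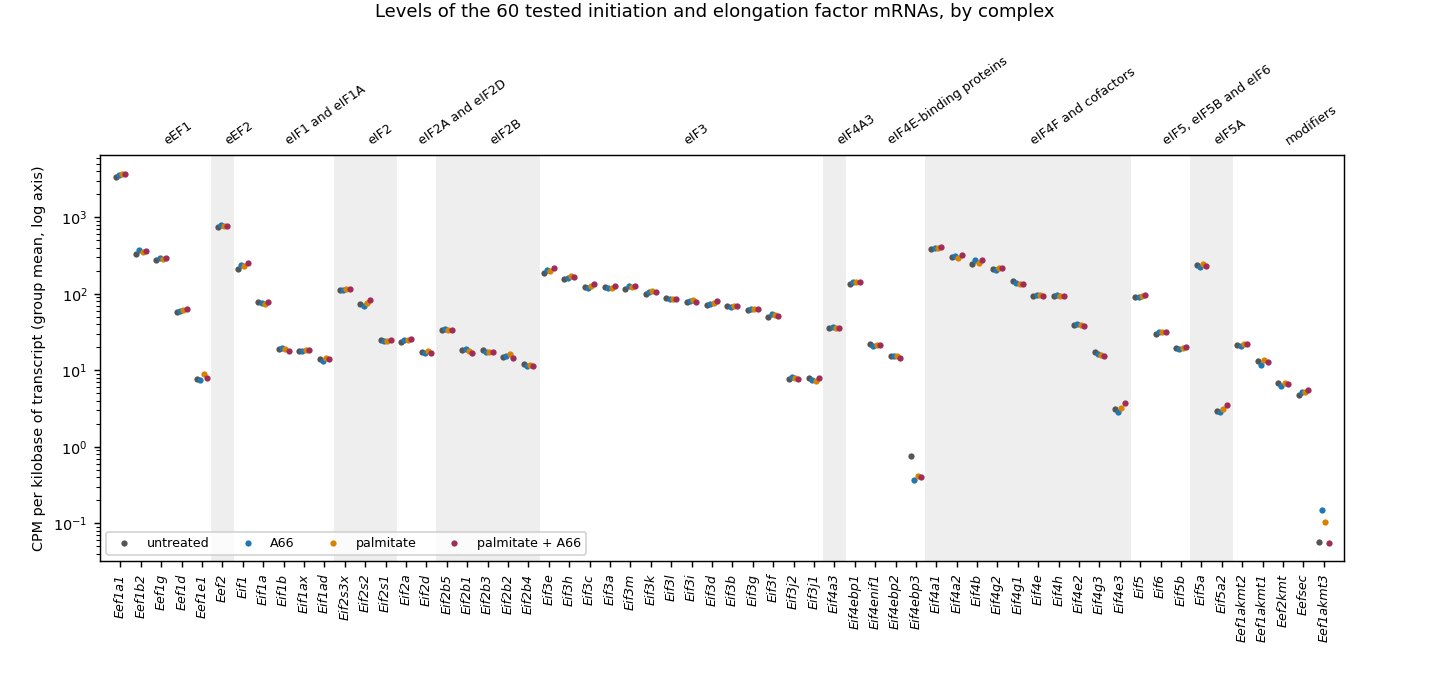
Level of each of the 60 tested mRNAs in CPM per kilobase of transcript on a log axis, grouped by complex, with 1 point for the mean of each group (n = 2). The 4 points of a gene nearly coincide except for the low-level genes, and Eef1a1 and Eef2 lie above the other members.

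The 3 members that did not pass the filter were Eef1a2, the eEF1A copy of neurons and muscle, with at most 1 count in a library, Eif4e1b, with at most 1 count, and Eif2s3y, at 0 in every library. Eif4ebp3 and Eef1akmt3 passed it with few counts. Eif4ebp3 had 32 and 20 counts in the untreated libraries and between 10 and 19 in the others, and its exons overlap a gene on the same strand by 327 bases. Eef1akmt3, a lysine methyltransferase of eEF1A, had 11 and 3 counts in the untreated libraries, 25 and 15 after A66, 24 and 8 after palmitate, and 8 and 7 after both. Their large fitted fold changes rest on these counts, and neither passed the test in a comparison.

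Over the 8 libraries, replicates and treatments together, the members varied about as much as all genes whose mean was 10 CPM or more. That set was not matched to the members in level. Among the 57 members whose mean was 10 CPM or more the median coefficient of variation over the 8 libraries was 4.06%, and the median over the 8956 genes at that level was 4.65%. The largest ratio between the highest and the lowest group mean was 1.22, for Eif5a2, and the median ratio was 1.08, beside 1.09 over all those genes. Differences under 1.1-fold against untreated cells were found for 83.3% of the tested members after A66, 91.7% after palmitate and 48 of the 60 after both, beside 70.1%, 68.8% and 61.7% of all genes tested, which include many genes of lower level.

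With edgeR's quasi-likelihood test and p-values adjusted over all genes by the Benjamini-Hochberg method, 2 of the 60 tested members (3.33%) passed an adjusted p of 0.05 between A66 and untreated cells, where 1.84% of all genes tested did. None passed between palmitate and untreated cells, where 1.17% of all genes did; 9 members had an unadjusted p under 0.05, and DESeq2 also called 0. Between palmitate plus A66 and palmitate 1 member passed, beside 2.81% of all genes, and between palmitate plus A66 and A66 1 member passed, beside 2.73%. Between palmitate plus A66 and untreated cells, a comparison added after the data had been seen, 9 members (15.0%) passed, beside 7.50% of all genes. Of these 9, 8 were higher and 1 was lower, where 3.79% of all genes were higher and 3.71% lower. All genes tested include many genes of lower level, so these shares are not matched for level. Scaled by library size only, 367 of all genes were higher and 859 lower, in place of 553 and 541. Of the members, Eif3c, Eif3d, Eif3m and Eef1d then lost their calls, and Eif4g1 was called lower. For the interaction of A66 after palmitate no member passed, where 0.00686% of all genes did; 9 members had an unadjusted p under 0.05, and DESeq2 also called 0.

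**Figure D2:**
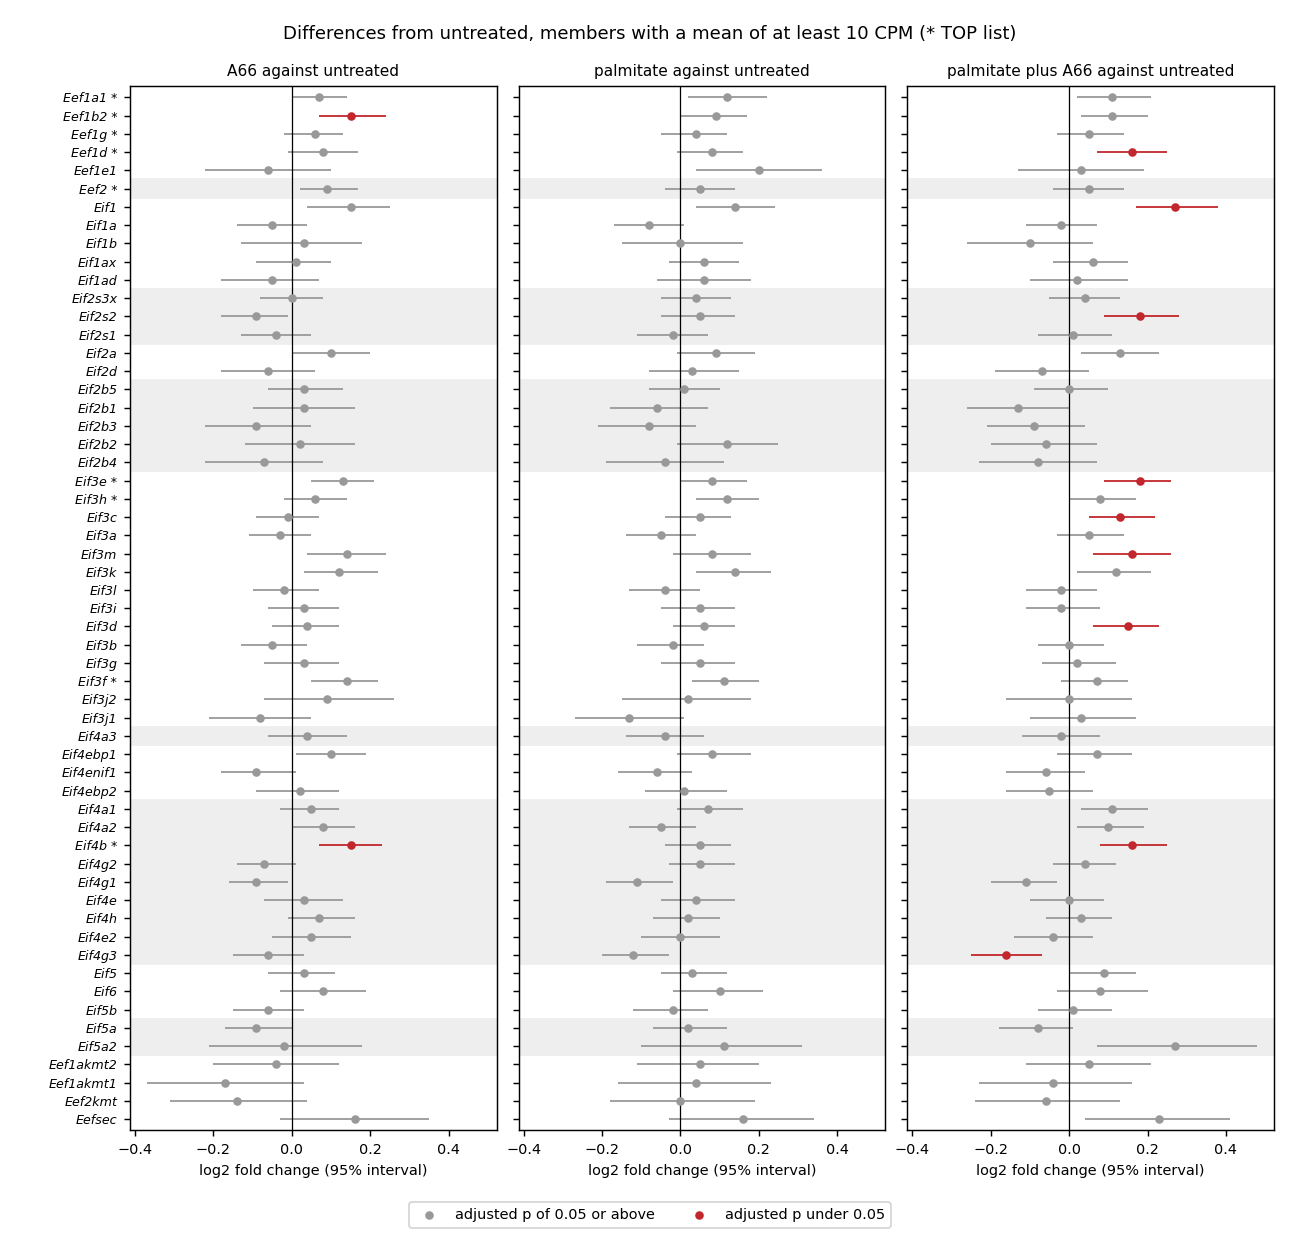
Log2 fold change (points) with its 95% interval (lines) against untreated cells for the 57 members whose mean was 10 CPM or more, grouped by complex, for A66, palmitate and both. Red marks an adjusted p under 0.05, which 2, 0 and 9 members reached, and all of the red points lie within 0.27 of 0.

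Among the factors that scan for the start codon, Eif1 rose when both agents were given. Eif1 (ENSMUSG00000035530, chromosome 11) encodes eIF1, which keeps the scanning ribosome from stopping at wrong start codons. Its level was 259 and 299 CPM in the untreated libraries, 309 and 309 after A66, 312 and 304 after palmitate, and 335 and 340 after both. The untreated libraries were the lowest and differed most between themselves, and those with both agents were the highest, with no overlap. Against untreated cells the log2 fold change with both was 0.27 (SE 0.05, adjusted p = 0.00107, edgeR), and it kept its call in all 16 alternatives, at log2 fold changes from 0.17 (adjusted p = 0.0398) without untreated replicate 1 to 0.38 without untreated replicate 2. For A66 alone it was 0.15 (adjusted p = 0.168) and for palmitate alone 0.14 (adjusted p = 0.211). Both passed without the filter on low counts, at 0.15 for A66 (adjusted p = 0.0114) and 0.15 for palmitate (adjusted p = 0.0268). Both estimates also rest on which untreated library is used. Without untreated replicate 1 they became 0.05 (adjusted p = 0.734) and 0.04 (adjusted p = 0.870), and without untreated replicate 2 they became 0.26 (adjusted p = 3.95e-07) and 0.25 (adjusted p = 0.00848). Eif1a and Eif1ax, which encode forms of eIF1A, lay at 142 to 156 and 88.7 to 97.3 CPM over the 8 libraries, and neither passed the test in any comparison.

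Of the 3 detected subunits of eIF2, the GTPase that carries the initiator tRNA, only Eif2s2 passed a test. Eif2s2 (ENSMUSG00000074656, chromosome 2) encodes the β subunit. It was at 176 and 184 CPM in untreated cells, 169 and 168 after A66, 192 and 180 after palmitate, and 197 and 211 after both. The A66 libraries were the lowest of the 8 and those with both agents the highest, so that palmitate plus A66 exceeded A66 by a log2 value of 0.28 (SE 0.05, adjusted p = 7.58e-04, edgeR). This call was kept in all 16 alternatives, at 0.22 to 0.33, with adjusted p between 9.28e-08 and 0.0274. Against untreated cells the value with both was 0.18 (adjusted p = 0.0158), which was lost without untreated replicate 1 (0.15, adjusted p = 0.158) and without palmitate plus A66 replicate 2 (0.13, adjusted p = 0.225). The A66 difference was -0.09 without palmitate (adjusted p = 0.342) and 0.13 with it (adjusted p = 0.134), and the interaction of 0.23, the smallest unadjusted p of the members at 0.00181, had an adjusted p of 0.340. The α subunit Eif2s1, the site of stress phosphorylation, lay between 80.3 and 86.9 CPM, and the γ subunit Eif2s3x between 262 and 282.

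The eIF2B subunits did not pass any test. All 5 had an estimate below 0 for palmitate plus A66 against palmitate, and 4 of 5 did against A66 and against untreated cells. The lowest adjusted p in that direction was that of Eif2b2, with a log2 fold change of -0.18 against palmitate (adjusted p = 0.150). Its level was 26.9 and 25.6 CPM with palmitate and 23.1 and 23.2 after both. The untreated libraries, at 23.9 and 24.4, lay between these groups. Summed over the 5 subunits the level was 198 and 201 CPM in untreated cells, 196 and 203 after A66, 197 and 199 after palmitate, and 189 and 195 after both. The exons of Eif2b4 overlap those of Snx17 on the opposite strand by 204 bases, and without a stated strand setting reads of such pairs cannot be told apart. Eif2a and Eif2d, which can deliver initiator tRNA without eIF2, lay at 53.5 to 58.7 and 34.6 to 39.6 CPM.

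In eIF3, the large complex that holds the small subunit and the mRNA together, 4 of the 14 subunits rose with palmitate plus A66 against untreated cells and none fell (28.6% called), where 3.79% of all genes tested were higher and 3.71% lower. All genes tested include many genes of lower level, so these shares are not matched for level. The comparison of both agents with untreated cells was added after the data were seen, and in the others edgeR with these settings called 0 of the 14. An unadjusted p under 0.05 was found for 4 subunits for A66, 3 for palmitate, 5 for both against palmitate and 2 for both against A66, and DESeq2 called 1 of them, Eif3c for both against A66. With other settings of edgeR the A66 difference passed for Eif3e without the filter (0.13, adjusted p = 0.0405) and without untreated replicate 2 (0.15, adjusted p = 0.0133), and for Eif3m without untreated replicate 2 (0.21, adjusted p = 0.00112). For palmitate plus A66 against untreated cells, estimates were above 0 for 12 of 14, with a median log2 fold change of 0.06. The median of all genes tested in that comparison was -0.001. Eif3e (ENSMUSG00000022336, chromosome 15) was at 281 and 289 CPM in untreated cells, 315 and 307 after A66, 312 and 292 after palmitate, and 321 and 323 after both, a log2 fold change of 0.18 (SE 0.04, adjusted p = 0.0109). Every treated library of Eif3e lay above both untreated libraries. Eif3d (ENSMUSG00000016554, chromosome 15), which encodes a subunit with cap-binding activity, was at 138 and 136 CPM in untreated cells, 139 and 142 after A66, 143 and 142 after palmitate, and 151 and 152 after both, a log2 fold change of 0.15 (adjusted p = 0.0268). Eif3c (ENSMUSG00000030738, chromosome 7), a core subunit, was at 406 and 411 CPM in untreated cells, 402 and 409 after A66, 430 and 414 after palmitate, and 450 and 447 after both, a log2 fold change of 0.13 (adjusted p = 0.0406). Against A66 alone its difference was 0.14 (adjusted p = 0.0513), which passed in 8 of the 16 alternatives, with adjusted p from 0.00470 to 0.426 over them. For Eif3c and Eif3d both libraries with the combined treatment stood above all 6 others. Eif3m (ENSMUSG00000027170, chromosome 2) was at 114 and 125 CPM in untreated cells, 134 and 128 after A66, 131 and 123 after palmitate, and 134 and 132 after both, a log2 fold change of 0.16 (adjusted p = 0.0478).

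These 4 calls lay near the threshold. Without untreated replicate 1 the adjusted p was 0.0943 for Eif3e, 0.0733 for Eif3d, 0.187 for Eif3c and 0.406 for Eif3m, whose log2 fold change then fell to 0.09. Without palmitate plus A66 replicate 1 they were 0.0629, 0.125, 0.194 and 0.222, and without its replicate 2 they were 0.074, 0.137, 0.145 and 0.121. Without untreated replicate 2 the adjusted p was 0.115 for Eif3d and 0.0835 for Eif3c. Without A66 replicate 1 and without A66 replicate 2, which are in neither group compared but enter the fit, the filter and the adjustment, it was 0.0639 and 0.0723 for Eif3c and 0.0548 and 0.0623 for Eif3m. Eif3m had an adjusted p of 0.0509 when the replicate number was entered as a block, 0.0621 with the length correction and 0.0615 with only the 4 libraries compared, where that of Eif3c was 0.0556. Scaled by library size only, Eif3d, Eif3c and Eif3m had adjusted p of 0.0866, 0.128 and 0.123. Estimates stayed above 0 in all 16 alternatives for these 4 genes. Summed over the 14 subunits the level was 2560 and 2579 CPM in untreated cells, 2635 and 2593 after A66, 2664 and 2575 after palmitate, and 2730 and 2715 after both. The copies Eif3j1 and Eif3j2, which encode the loosely bound subunit eIF3j, were at 36.3 to 44.7 and 17.4 to 20.1 CPM and passed no test. Eif3j1 shares 541 bases of exon with Spg11 on the opposite strand.

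Within eIF4F and its helicase cofactors the members moved in different directions. Eif4b (ENSMUSG00000058655, chromosome 15), whose product stimulates the helicase eIF4A and is phosphorylated downstream of mTORC1, was at 681 and 656 CPM in untreated cells, 743 and 738 after A66, 691 and 689 after palmitate, and 761 and 734 after both. The 4 libraries with A66 stood above the 4 without it. The log2 fold change was 0.15 for A66 against untreated cells (SE 0.04, adjusted p = 0.0369), 0.12 for palmitate plus A66 against palmitate (adjusted p = 0.142) and 0.16 for both against untreated cells (adjusted p = 0.0145). For palmitate plus A66 against palmitate it passed under DESeq2 (0.12, adjusted p = 0.0361). The A66 call was lost when counts were scaled by library size only (adjusted p = 0.0652) and when all 8 libraries were fitted together (adjusted p = 0.078). It was also lost without A66 replicate 1 (log2 fold change 0.15) and without A66 replicate 2 (log2 fold change 0.16). For both against untreated cells the call was lost without untreated replicate 2 (adjusted p = 0.112) and without palmitate plus A66 replicate 1 (adjusted p = 0.167).

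Eif4a2 (ENSMUSG00000022884, chromosome 16), a paralog of the main helicase, was at 645 and 669 CPM in untreated cells, 701 and 687 after A66, 643 and 630 after palmitate, and 697 and 715 after both. As for Eif4b, the 4 libraries with A66 lay above the 4 without it. Palmitate plus A66 exceeded palmitate by a log2 value of 0.15 (SE 0.04, adjusted p = 0.0451), and the A66 difference without palmitate was 0.08 (adjusted p = 0.366). The first call was lost when any 1 of 6 libraries was left out. The adjusted p was 0.0822 and 0.0853 without A66 replicates 1 and 2, 0.0537 and 0.201 without palmitate replicates 1 and 2, and 0.124 and 0.304 without palmitate plus A66 replicates 1 and 2. It was also lost when only the 4 libraries compared were fitted (0.104) and when scaled by library size only (0.0948). Eif4a2 shares 167 bases of exon with Rfc4 on the opposite strand, which was at a mean of 7.80 CPM. Eif4a1, the main helicase of eIF4F, was at 665 and 686 CPM in untreated cells and 733 and 728 after both, a log2 fold change of 0.11 (adjusted p = 0.101).

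Of the scaffold genes Eif4g3 fell with both agents, and Eif4g1 and Eif4g2 did not pass the test by edgeR with TMM. Eif4g3 (ENSMUSG00000028760, chromosome 4) was at 100 and 95.4 CPM in untreated cells, 93.1 and 93.9 after A66, 89.9 and 90.5 after palmitate, and 88.4 and 86.7 after both. The untreated libraries were the highest and those with both agents the lowest, and the log2 fold change between them was -0.16 (SE 0.04, adjusted p = 0.0237), the only call of a fall among the members by edgeR with TMM. It was lost without untreated replicate 1 (-0.12, adjusted p = 0.208) and without either library of the combined treatment (adjusted p = 0.105 and 0.149). Eif4g1, the main scaffold, was at 808 and 777 CPM in untreated cells and between 723 and 755 in the 6 treated libraries, and its log2 fold change with both was -0.11 (adjusted p = 0.107), which passed under DESeq2 (adjusted p = 0.0364) and with library size only (-0.14, adjusted p = 0.0348). Eif4g2, which encodes a relative of the scaffold that does not bind eIF4E, was at 1212 and 1240 CPM in untreated cells, 1163 and 1174 after A66, 1292 and 1252 after palmitate, and 1264 and 1257 after both. Its estimates were -0.07 after A66 (adjusted p = 0.466) and 0.11 for both against A66 (adjusted p = 0.172), and the latter passed under DESeq2 (adjusted p = 0.0368). Of the cap-binding proteins, Eif4e lay between 71.6 and 77.3 CPM and Eif4e2 between 67.0 and 75.1. Eif4e3 was at 6.85 and 7.52 CPM with A66 and 9.52 and 9.13 after both, a log2 fold change of 0.38 (SE 0.11, adjusted p = 0.0623). It passed without the filter (adjusted p = 0.0431) and with only the 4 libraries compared (adjusted p = 0.0495), and in the other alternatives the adjusted p rose to as much as 0.461.

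**Figure D3:**
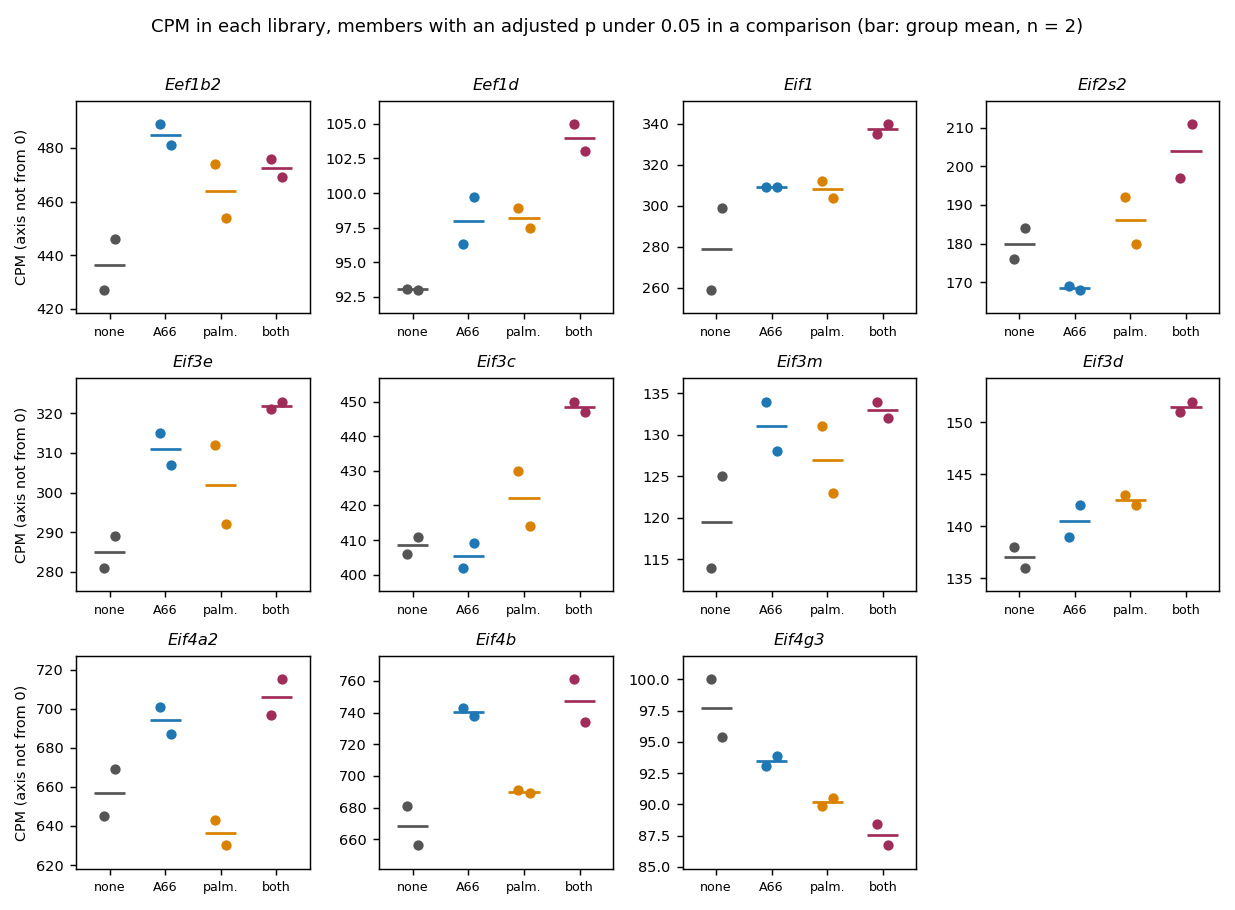
CPM in each of the 8 libraries for the 11 members that passed the test in a comparison, with a bar at the mean of each group (none, A66, palmitate, both; n = 2). The vertical axes do not start at 0. In Eif4b and Eif4a2 the 4 libraries with A66 lie above the 4 without, Eif4g3 is highest in the untreated libraries, and the other members except Eef1b2 have their highest mean with both agents.

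The 4E-BP mRNAs did not pass a test. Eif4ebp1, the main 4E-BP of fat cells and a substrate of mTORC1, was at 259 and 278 CPM in untreated cells, 290 and 285 after A66, 271 and 300 after palmitate, and 281 and 282 after both. Its log2 fold change with A66 was 0.10 (adjusted p = 0.294). This became 0.05 (adjusted p = 0.717) without untreated replicate 1 and 0.16 (adjusted p = 0.0106) without untreated replicate 2. Eif4ebp2 lay between 50.8 and 56.5 CPM, and Eif4enif1, whose product carries eIF4E into the nucleus, between 73.9 and 81.0.

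No factor of subunit joining, nor Eif4a3, Eif5a or Eif5a2, passed the test in a comparison by edgeR with TMM, the filter and the libraries set for each comparison, and Eif5a2 passed in some alternatives. Eif5, whose product triggers GTP hydrolysis by eIF2, lay between 313 and 342 CPM, Eif5b, which joins the large subunit, between 144 and 159, and Eif6, which keeps the subunits apart, between 42.8 and 47.6. Eif4a3, a helicase of the exon junction complex, lay between 52.2 and 56.9 CPM. Eif5a, which helps the ribosome past difficult peptide bonds once it carries hypusine, was at 311 and 308 CPM in untreated cells, 283 and 298 after A66, 322 and 307 after palmitate, and 303 and 281 after both. Its A66 difference was -0.09 without palmitate (adjusted p = 0.359) and -0.11 with it (adjusted p = 0.254). The copy Eif5a2 was at 13.4 and 15.8 CPM in untreated cells and 17.8 and 17.5 after both, a log2 fold change of 0.27 (adjusted p = 0.0983). It became 0.17 (adjusted p = 0.523) without untreated replicate 1, and it passed at 0.40 (adjusted p = 0.0463) without untreated replicate 2 and at 0.28 (adjusted p = 0.041) without the filter on low counts. Against A66 alone the difference of Eif5a2 was 0.29 (adjusted p = 0.130), which passed without the filter (adjusted p = 0.0493) and with only the 4 libraries compared (adjusted p = 0.0457), over a range of adjusted p up to 0.667.

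Among the elongation factors, Eef1b2 rose with A66 and Eef1d with both agents. Eef1b2 (ENSMUSG00000025967, chromosome 1) encodes a nucleotide exchange subunit of eEF1B and was at 427 and 446 CPM in untreated cells, 489 and 481 after A66, 474 and 454 after palmitate, and 476 and 469 after both. All 6 treated libraries lay above the 2 untreated ones, and those with A66 alone were the highest. The log2 fold change was 0.15 for A66 (SE 0.04, adjusted p = 0.0388), 0.09 for palmitate (adjusted p = 0.389) and 0.11 for both against untreated cells (adjusted p = 0.0984). The A66 call was lost without untreated replicate 1 (adjusted p = 0.0763), without A66 replicate 1 (0.415), without A66 replicate 2 (0.223), when scaled by library size only (0.0731) and with all 8 libraries in the fit (0.0743). Eef1d (ENSMUSG00000055762, chromosome 15), the other exchange subunit, was at 93.1 and 93.0 CPM in untreated cells, 96.3 and 99.7 after A66, 98.9 and 97.5 after palmitate, and 105 and 103 after both, a log2 fold change of 0.16 after both (SE 0.04, adjusted p = 0.0199). Its call was lost when either untreated library or either library of the combined treatment was left out, with adjusted p between 0.0703 and 0.138, and when scaled by library size only (0.0638). Eef1d shares 277 bases of exon with Naprt on the same strand, which was at a mean of 2.21 CPM.

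Eef1a1, the highest of all members, was at 6140 and 6001 CPM in untreated cells, 6365 and 6379 after A66, 6815 and 6380 after palmitate, and 6829 and 6298 after both. Every treated library exceeded both untreated ones, but the replicates of the palmitate groups differed from each other by more than the A66 libraries differed from untreated cells. The log2 fold changes against untreated cells were 0.07 after A66 (adjusted p = 0.350), 0.12 after palmitate (adjusted p = 0.275) and 0.11 after both (adjusted p = 0.162). Without the filter on low counts, palmitate and both passed for Eef1a1, with adjusted p of 0.00711 and 0.0077. Eef2 was at 2331 and 2225 CPM in untreated cells, 2393 and 2450 after A66, 2349 and 2371 after palmitate, and 2383 and 2331 after both, and its A66 difference was 0.09 (adjusted p = 0.262). Eef1g, a structural subunit of eEF1B, lay between 514 and 552 CPM. Eef1e1, a scaffold of the tRNA synthetase complex that is related to eEF1B, was at 19.0 and 20.8 CPM in untreated cells and 23.1 and 22.6 after palmitate, a log2 fold change of 0.20 (adjusted p = 0.251). The methyltransferases Eef1akmt1, Eef1akmt2 and Eef2kmt and the selenocysteine elongation factor Eefsec lay between 10.3 and 18.9 CPM, and none passed a test.

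The TOP list holds 10 members (Eef1a1, Eef1a2, Eef1b2, Eef1d, Eef1g, Eef2, Eif3e, Eif3f, Eif3h and Eif4b), of which all but Eef1a2 were tested. With A66 the estimates of all 9 lay above 0, between 0.06 and 0.15, with a median of 0.09, beside a median of -0.001 over all genes tested and 0.000 over the 51 other members. The 2 A66 libraries stood above both untreated libraries for all 9, where this held for 20.3% of all genes tested, and 2 of the 9 passed the test, beside 1.84% of all genes. With palmitate all 9 estimates were again above 0, with a median of 0.08, the libraries were apart for 8 of 9, beside 20.4% of all genes, and 0 passed by edgeR and by DESeq2, beside 1.17% of all genes by edgeR, with 4 at an unadjusted p under 0.05. With both agents the median was 0.11, the libraries were apart for 8 of 9, beside 24.4% of all genes, and 3 passed, beside 7.50%. These 3 comparisons share the untreated libraries. Outside the list, runs of 16, 14 and 10 pyrimidines cross the annotated start in Eif2s3x, Eif2b5 and Eif3l. Their A66 estimates were 0.00, 0.03 and -0.02. The list was chosen with earlier results known, so its direction is a description and depends on which members were listed. It was the same when counts were scaled by library size only, by RLE, or with a length correction.

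In the comparisons that leave out the untreated libraries the TOP list did not stand on one side. For palmitate plus A66 against palmitate 5 of the 9 estimates were above 0 and 4 below, with a median of 0.01, and against A66 6 were above and 3 below, with a median of 0.01. Eif3f, a core eIF3 subunit with the longest pyrimidine run shown, is an example. It was at 124 and 124 CPM in untreated cells, 136 and 136 after A66, 137 and 131 after palmitate, and 128 and 131 after both. Its A66 difference was 0.14 without palmitate (adjusted p = 0.0943), and the interaction was -0.18 (unadjusted p = 0.00491, adjusted p = 0.437). The interaction includes the untreated libraries, and low untreated values lower it by construction, so its estimates for the list (below 0 for 8 of 9, none past the test) are not separate from the comparisons with untreated cells.

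**Figure D4:**
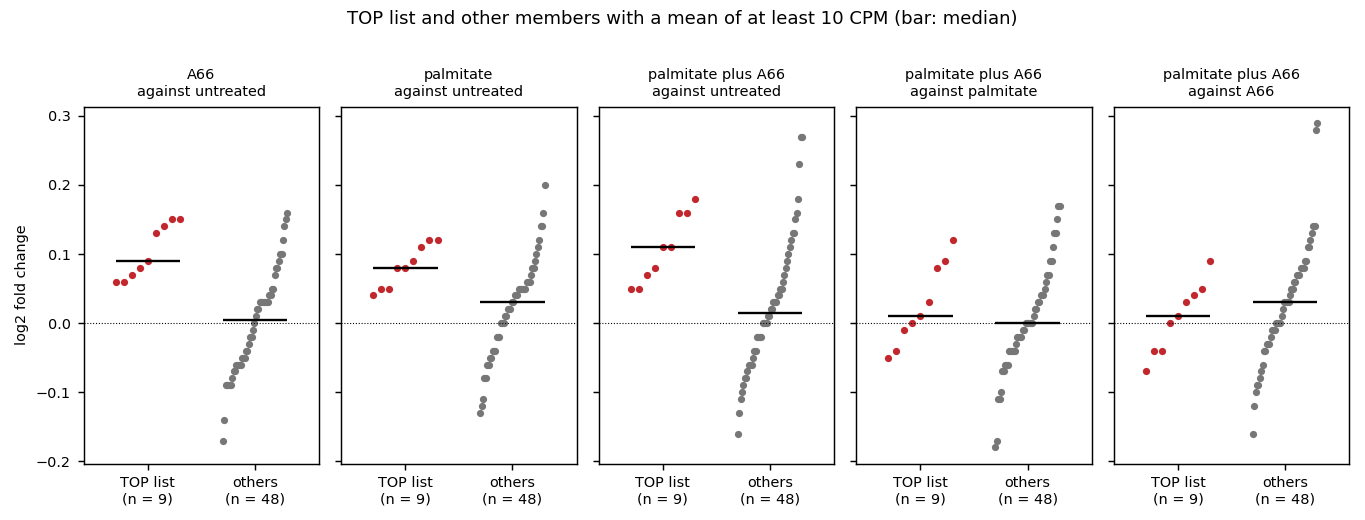
Log2 fold changes of the 9 tested TOP list members and of the 48 other members whose mean was 10 CPM or more in 5 comparisons, with a bar at the median. All TOP list points lie above 0 in the 3 comparisons with untreated cells, which share those libraries, and on both sides of 0 in the other 2 comparisons.

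Across all tested members, the libraries of the A66 group lay above those of untreated cells for 22 of the 60 tested members and below them for 15, where this held for 20.3% and 22.3% of all genes. After palmitate 21 lay above and 7 below, where 20.4% and 20.2% of all genes did. With both agents 26 members lay above and 12 below, where 24.4% and 25.3% of all genes did.

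The A66 difference without palmitate and that with palmitate share no library, so they can be set against each other. Over the 57 members whose mean was 10 CPM or more the estimates had the same sign for 47.4%, with Pearson's r of 0.23 across genes, whereas over the 8956 genes at that level they had the same sign for 61.4%, with r of 0.36. For the palmitate difference without and with A66 the same sign was seen for 54.4% of the members, with r of 0.23, and for 60.9% of all those genes, with r of 0.44. Genes are not independent replicates, and these values are descriptions. Eif1 and Eif4b were above 0 in both A66 differences, with 0.15 and 0.13 for Eif1 and 0.15 and 0.12 for Eif4b, while Eif2s2 had opposite signs. With the 3 members of lower counts included, r became -0.61 for the A66 pair and -0.60 for the palmitate pair.

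**Figure D5:**
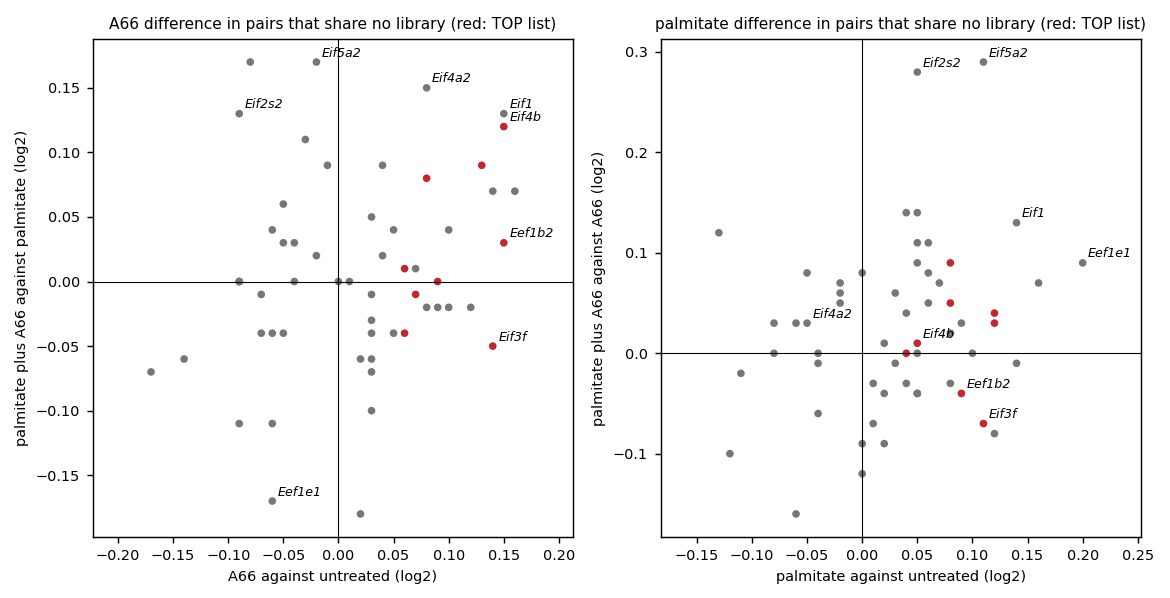
Log2 fold changes of the 57 members whose mean was 10 CPM or more in pairs of comparisons that share no library, the A66 difference without and with palmitate (left) and the palmitate difference without and with A66 (right), with TOP list members in red. Points fall in all 4 quadrants, with r of 0.23 in each panel.

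Other genes of the pathway were counted from a list of 38, of which 37 were tested. With A66 1 fell, with palmitate 1 rose, for palmitate plus A66 against palmitate 1 rose and 1 fell, against A66 1 rose, and against untreated cells 4 rose and 2 fell. Among all genes tested 1.84%, 1.17%, 2.81%, 2.73% and 7.50% passed in these comparisons, so a count of 1 of 37 is near the background. Eif2ak2, which encodes the eIF2 kinase PKR that is induced by interferon, was at 73.2 and 66.2 CPM in untreated cells, 59.6 and 59.2 after A66, 70.1 and 69.8 after palmitate, and 57.2 and 58.7 after both. The 4 libraries with A66 lay below the 4 without it, and the log2 fold change was -0.23 without palmitate (adjusted p = 0.0207) and -0.27 with it (adjusted p = 0.00304). Ppp1r15a, which encodes GADD34, the stress-induced subunit that directs a phosphatase to eIF2, was at 86.3 and 87.5 CPM in untreated cells, 81.4 and 83.1 after A66, 101 and 92.2 after palmitate, and 113 and 100 after both. Palmitate plus A66 exceeded A66 by 0.37 (adjusted p = 1.22e-04) and untreated cells by 0.29 (adjusted p = 9.60e-04). Paip1, a partner of the poly(A)-binding protein that stimulates initiation, rose by 0.18 over palmitate (adjusted p = 0.0364) and by 0.21 over untreated cells (adjusted p = 0.00635) with both agents.

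Akt1s1, which encodes the mTORC1 inhibitor PRAS40, rose by 0.28 after palmitate (adjusted p = 0.0273) and by 0.23 after both (adjusted p = 0.0263) against untreated cells. The eIF4E kinase gene Mknk2 rose by 0.15 (adjusted p = 0.0421) and the mitochondrial elongation factor gene Gfm1 fell by 0.15 (adjusted p = 0.0294) with both. Of the 11 calls of pathway genes 3 held in every alternative run, those of Ppp1r15a against A66 and against untreated cells and that of Eif2ak2 for both against palmitate, and none changed direction. The A66 call of Eif2ak2 was lost without untreated replicate 1 and without either A66 library, with an adjusted p of up to 0.196. With both agents against untreated cells, the calls of Akt1s1, Mknk2, Gfm1 and Paip1 were lost with a library left out, untreated replicate 1 among them, with adjusted p of up to 0.289, 0.211, 0.190 and 0.106. The palmitate call of Akt1s1 was lost without untreated replicate 1 and without palmitate replicate 2 (up to 0.319), and that of Paip1 over palmitate in 6 of 16 alternatives (up to 0.282). Beside these values, 3 of the 8 adipocyte markers fell after both against untreated cells. They were Cidec, Lpl and Plin1, by 0.41, 0.23 and 0.19 (adjusted p = 1.09e-04, 0.00194 and 0.0247). Estimates of the other adipocyte markers ran from -0.14 for Adipoq (adjusted p = 0.0758) to 0.01 for Fabp4 (adjusted p = 0.955). In the same comparison the macrophage marker Cd68 rose by 0.88 (adjusted p = 0.00103) from 2.57 and 3.42 CPM to 5.40 and 5.74. Csf1r, the other macrophage marker tested, did not exceed 0.277 CPM and had an estimate of -0.08 (adjusted p = 0.961). The muscle marker Acta1 rose by 1.31 (adjusted p = 0.00184) from 0.801 and 0.851 CPM to 1.98 and 2.13. For both against A66, the comparison of the Eif2s2 call, 5 of the 8 adipocyte markers fell: Cidec by 0.32, Plin1 by 0.28, Cfd by 0.27, Adipoq by 0.24 and Lpl by 0.17 (adjusted p between 0.00234 and 0.0397), and Cd68 rose by 0.91 (adjusted p = 0.00140). Of the 4 preadipocyte and fibroblast markers tested only Col1a1 passed a test. It rose by 0.25 with palmitate against untreated cells (adjusted p = 0.00331) and fell by 0.33 for both against palmitate (adjusted p = 1.75e-04), where Cidec fell by 0.23 (adjusted p = 0.0373), and Lpl fell by 0.19 with palmitate (adjusted p = 0.0331). In these comparisons the estimates of Pdgfra were 0.11 and -0.07, of Thy1 -0.01 and -0.12 and of Cd34 -0.19 and 0.22 (adjusted p between 0.451 and 0.961). Of the 15 calls of marker genes 5 held in every alternative run, those of Cidec, Cd68 and Acta1 for both against untreated cells and of Col1a1 in both comparisons, and none changed direction. The part of these shifts in the values of the factors was not tested.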

How the data were processed

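Paired reads had been aligned to GRCm38 by the authors (TopHat 2.0.11, per the submitters' processing notes) and counted on Ensembl genes with HTSeq, and the deposited values are these raw counts, not normalized, with a column for each library. Neither a strand setting nor an annotation release for the counting is given in the sources used here. The file also holds fold changes and p-values of the authors' own DESeq2 comparisons, which were not used. Groups were taken from the treatment in the labels (4 groups, 2 libraries each). The study's methods speak of biological repeats, and as both cultures of a group come from 1 cell line the p-values measure the spread between these cultures.

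Gene IDs were matched to GENCODE M21 (42462 of 43629 matched, and 327 unmatched genes had counts). The tests ran in edgeR 4.0.16 under R 4.3.3, with TMM normalization, filterByExpr with a minimum count of 10, quasi-likelihood tests and Benjamini-Hochberg adjustment over all genes tested. A66 was compared with untreated cells in 4 libraries, and the other comparisons used a fit on all 8 libraries. CPM use library totals multiplied by the TMM factors. The totals of 42247091 to 57529803 counts set the precision together with the spread between cultures (biological coefficient of variation 0.0377 and 0.0406 in the 2 fits). The scripts were tested on simulated data.

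The genes named were the members with an adjusted p under 0.05, in each complex the member with the highest level and those with the smallest p, those that did not pass the filter, and paralogs. Not all of them are given with full statistics. The members and lists were chosen with earlier results of these data known, and the comparison of palmitate plus A66 with untreated cells was added after seeing the data. Alternatives were RLE normalization, library size only, DESeq2 1.42.0, no filter, at least 10 counts in every library, a length correction (loess span 0.4), fits on all 8 or only 4 libraries, a block for the replicate number, and each library left out in turn. Sequences come from a RefSeq table of promoters on GRCm38.p6.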

Additional observations from a re-analysis of the deposited data

How the results depend on the processing

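Among the 76 differences of single members with an unadjusted p under 0.05, none changed direction in 1138 recomputed values, of which 1051 stayed on the same side of an adjusted p of 0.05, 54 lost and 33 gained a call. The count of members called for A66 against untreated cells was 2, and became 0 with library size only, 0 with all 8 libraries in the fit and 4 without the filter, and 0 to 6 when a library was left out. For palmitate against untreated cells it was 0, became 2 without the filter, and was 0 to 1 with a library left out. For palmitate plus A66 against palmitate it was 1, became 0 with library size only, 0 with only the 4 libraries compared and 2 with DESeq2, and was 0 to 1 with a library left out. For palmitate plus A66 against A66 it was 1, became 3 with DESeq2, 4 without the filter, 2 with at least 10 counts in every library and 5 with only the 4 libraries compared, and was 1 to 2 with a library left out. For palmitate plus A66 against untreated cells it was 9, became 13 with DESeq2 (gaining Eif4a1, Eif4a2, Eef1b2 and Eif4g1), 12 without the filter, 6 with library size only, 8 with the length correction and 7 with only the 4 libraries compared, and was 2 to 9 with a library left out. The counts over all genes moved too: in the order above they were 261, 171, 410, 398 and 1094, with a library left out 98 to 635, 71 to 245, 147 to 494, 107 to 502 and 437 to 1236, and without the filter 459, 396, 652, 664 and 1363. With library size only the counts over all genes were 280, 188, 457, 446 and 1226, and with DESeq2 205, 220, 436, 438 and 1041. With all 8 libraries in the fit the A66 count over all genes was 209. With only the 4 libraries compared, those of the other comparisons were 132, 376, 689 and 909. With the length correction 1161 genes passed for both against untreated cells. With at least 10 counts in every library 418 passed for both against A66. A group left with 1 library was assumed to vary like the others. The causes were not tested. The calls of Eif1 with both agents against untreated cells and of Eif2s2 with both agents against A66 were kept in every alternative run, and each of the other 11 calls was lost in at least 1. When the replicate number was entered as a block, the counts were 2, 0, 1 and 1, and 8 with both agents against untreated cells. Deviations of same-numbered libraries correlated between -0.147 and 0.153, so the numbers were not taken as pairs, and the block changed no call other than that of Eif3m, whose adjusted p with both agents became 0.0509. With 2 libraries a group, small differences can be missed, and counting error weighs most on Eif4ebp3 and Eef1akmt3, with at most 32 and 25 counts in a library.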
